A study of Mus musculus with 6 samples.

Results

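The subunit genes of RNA polymerases I, II and III (Pol I, Pol II and Pol III) were followed through an RNA immunoprecipitation sequencing (RIP-seq) experiment on the RNA-binding protein CPEB1 in mouse muscle stem cells. They were chosen by symbol, as genes named Polr1, Polr2 or Polr3 followed by a letter, and 27 of the 55376 genes in the count tables are described: 5 for Pol I, 13 for Pol II and 9 for Pol III. A pseudogene of Polr2k carries such a name and was left out; its row held no count in any library. The rule used no measured value. RIP-seq sequences the RNA that comes down from a cell lysate with an antibody on beads. The 6 libraries came from satellite cells (SCs) of C57BL/6 mice aged 3 months, all untreated, sorted from dissociated muscle and lysed freshly isolated (fiSCs): 2 with an anti-CPEB1 antibody (CPEB1 IP), 2 with an anti-IgG control antibody (IgG) and 2 of input RNA, for which no antibody is given. The labels number the 2 libraries of each group but do not say which animals the cells came from. The study's methods describe the replicates as biological and the RIP as independent experiments, and the p-values measure the spread between these libraries.

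Cells of animals share their transcription among 3 nuclear RNA polymerases. Pol I makes the large ribosomal RNA precursor in the nucleolus, Pol II makes messenger RNAs and many small RNAs, and Pol III makes transfer RNAs, the 5S ribosomal RNA and other short RNAs. In each enzyme the largest and the second-largest subunit form the active centre (Polr1a with Polr1b, Polr2a with Polr2b, Polr3a with Polr3b). Polr2e, Polr2f, Polr2h, Polr2k and Polr2l carry Pol II names but belong to all 3 enzymes, and Polr1c and Polr1d belong to both Pol I and Pol III. CPEB1 binds cytoplasmic polyadenylation elements (CPEs), U-rich stretches of a few bases near the end of messenger RNAs, and governs the length of the poly(A) tail and translation. The libraries hold the messenger RNAs of the polymerase subunits, not the enzymes or what they transcribe.

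Counts on genes ranged from 1284716 to 4941653 for each library, with the lowest values in IgG. The deposited FPKM (fragments scaled to gene length and to a library total) rest on a total of which 69.5% to 79.8% fell on genes in input and CPEB1 IP, but only 39.1% and 39.5% in IgG. All 10 satellite cell markers searched, Pax7 among them, were detected in every library, with a summed level of 9844 to 13251 CPM (each count relative to its own library total, normalized by edgeR's TMM method over the 6 libraries). Markers of 4 other cell types summed to more in the precipitates than in input, and none of these lists had a gene without counts in both input libraries. Those of fibro-adipogenic progenitors summed to 302 and 245 CPM in input, 417 and 358 CPM in IgG, and 515 and 523 CPM in CPEB1 IP. Those of endothelial cells summed to 31.3 and 22.99 CPM in input, 54.7 and 88.1 CPM in IgG, and 87.9 and 85.5 CPM in CPEB1 IP. Those of myofibres and of blood cells lay at 20.8 to 66.0 CPM in input and at 53.7 to 135 CPM in the precipitates. The 4 markers of smooth muscle and pericytes summed to 688 and 830 CPM in input and to 273 to 380 CPM in the precipitates; the part of these markers in the results below was not tested.

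In input, the subunit genes spanned a wide range of levels, with the highest median in Pol II and the lowest in Pol III. Per length, the lowest was Polr3g, an alternative subunit of the initiation module of Pol III, with 1.27 and 1.29 FPKM in the 2 input libraries. The highest was Polr2m, which encodes a part-time Pol II subunit also called Gdown1, with 60.3 and 69.8 FPKM. The median over the genes of a polymerase was 5.92 and 4.61 FPKM for Pol I, 11.7 and 18.1 FPKM for Pol II, and 3.76 and 4.39 FPKM for Pol III. The active-centre genes had means in the same order, 11.6 ± 0.02 FPKM for Polr2a, 9.37 ± 0.40 for Polr2b, 4.69 ± 0.58 for Polr1a, 5.26 ± 0.93 for Polr1b, 2.06 ± 0.12 for Polr3a and 4.10 ± 0.42 for Polr3b (SD, n = 2). The values of Polr1a and Polr3b overlapped, as did those of Polr1a and Polr1b. Polr3gl, the paralog of Polr3g that fills the same place in Pol III, stood at 9.93 and 11.9 FPKM, well above both Polr3g values. Among genes with a count in input, Polr3g lay at the 51.9th percentile of FPKM and Polr2m at the 97.7th. In RNA pooled from many cells, more expressing cells and more RNA for each cell cannot be told apart.

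CPEB1 IP was set against IgG first, which asks which RNAs came down with the CPEB1 antibody more than with a control antibody. Of the 27 subunit genes, 9 stood higher in CPEB1 IP, tested by the quasi-likelihood method of edgeR at an adjusted p under 0.05, a threshold that 14.7% of the 12124 genes tested passed in that direction. None was lower, whether by edgeR, at an unadjusted p under 0.05 or by DESeq2, against 18.7% of all genes tested that were lower in edgeR. The 9 were 7 of 13 Pol II genes (Polr2a, Polr2b, Polr2c, Polr2d, Polr2e, Polr2l and Polr2m), 1 of 9 Pol III genes (Polr3e) and 1 of 5 Pol I genes (Polr1e). By DESeq2, 12 were higher, beside 2635 of all 42045 genes with a count. This added Polr1b, Polr1d and Polr2h and made 3 of 5 for Pol I and 8 of 13 for Pol II. At an unadjusted p under 0.05 in edgeR, 11 of the 27 were higher. The median log2 fold change was 0.46 for Pol II, 0.16 for Pol I and -0.26 for Pol III, beside -0.01 over all genes tested. Median FPKM in input fell in the same order. Over all genes tested, the log2 fold change had a Spearman rho of 0.63 with mean FPKM in input. The part of this in the order of the polymerases was not tested. DESeq2, run here without the filter on low counts, raised the log2 fold changes over IgG by a median of 0.28. Of all its calls 72.5% were higher, against 44.0% in the main fit. DESeq2 size factors in edgeR, with the filter kept, raised them by 0.012, with 45.4% of calls higher. Values are therefore read relative to the median of all genes. All 27 genes passed the filter on low counts.

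Polr2a, on the minus strand of chr11:69733997-69758637 (mm10), encodes the largest Pol II subunit, which carries the C-terminal repeat domain. It stood at 116 and 107 CPM in input, 88.1 and 85.2 CPM in IgG, and 197 and 206 CPM in CPEB1 IP. Both CPEB1 IP libraries lay above all 4 others, and the difference from IgG was the largest among the subunit genes (log2 fold change 1.15, SE 0.12, edgeR adjusted p = 1.14e-06). Polr2m, on the minus strand of chr9:71478437-71485935, had 206 and 221 CPM in input, 138 and 155 CPM in IgG, and 249 and 285 CPM in CPEB1 IP. Here too CPEB1 IP was the highest group and IgG the lowest, with no overlap, and the log2 fold change over IgG was 0.80 (SE 0.11, edgeR adjusted p = 3.60e-05). These were the only 2 subunit genes higher in CPEB1 IP under every alternative fit run, over which the log2 fold change lay between 1.14 and 1.55 for Polr2a and between 0.72 and 1.20 for Polr2m.

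Polr2b, the second-largest Pol II subunit, had 59.8 and 58.9 CPM in input, 38.7 and 36.4 CPM in IgG, and 59.6 and 64.4 CPM in CPEB1 IP. Its CPEB1 IP level was thus above IgG (log2 fold change 0.66, SE 0.18, edgeR adjusted p = 0.00820) but overlapped that of input, and IgG was the group that stood apart. Polr2c, which encodes a scaffold subunit on which Pol II assembles, had 81.6 and 94.1 CPM in input, 103 and 107 CPM in IgG, and 144 and 150 CPM in CPEB1 IP (log2 fold change over IgG 0.42, SE 0.12, edgeR adjusted p = 0.0120). Exons of Polr2b overlap an exon of Igfbp7 on the other strand, and those of Polr2c overlap Dok4. Polr1a, Polr2f, Polr2h, Polr2i, Polr2j, Polr3b and Polr3gl overlap exons of other genes on the other strand too. The strand setting of the counting is not given in the sources used here, so reads of the overlapping genes may not be told apart.

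The stalk of Pol II is built from Polr2d and Polr2g, and only the former passed the test. Polr2d had 65.4 and 58.9 CPM in input, 63.0 and 72.1 CPM in IgG, and 96.7 and 98.1 CPM in CPEB1 IP, with both CPEB1 IP values above the rest (log2 fold change over IgG 0.46, SE 0.15, edgeR adjusted p = 0.0190). Polr2g rested on 11 and 20 counts in the IgG libraries and had a log2 fold change of 0.03 with an SE of 0.39, so that at this depth even a difference of the size seen for Polr2d could not be resolved. Whether the stalk genes differed from each other was not tested.

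Among the 5 subunits common to all 3 enzymes, Polr2e and Polr2l were higher in CPEB1 IP than in IgG. Polr2e had 78.0 and 90.4 CPM in input, 79.8 and 68.5 CPM in IgG, and 122 and 103 CPM in CPEB1 IP (log2 fold change over IgG 0.52, SE 0.15, edgeR adjusted p = 0.0100). Polr2l had 58.0 and 56.7 CPM in input, 84.3 and 65.6 CPM in IgG, and 101 and 121 CPM in CPEB1 IP (log2 fold change over IgG 0.52, SE 0.15, edgeR adjusted p = 0.0129). For both genes the CPEB1 IP libraries lay above all others, but for Polr2l the IgG libraries also lay above input. Polr2f, Polr2h and Polr2k did not pass by edgeR, with log2 fold changes of -0.31, 0.42 and 0.37, while Polr2h passed by DESeq2. Leaving the 5 common subunits out, 5 of the other 8 Pol II genes were higher in CPEB1 IP, with a median log2 fold change of 0.48.

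**Figure D1:**
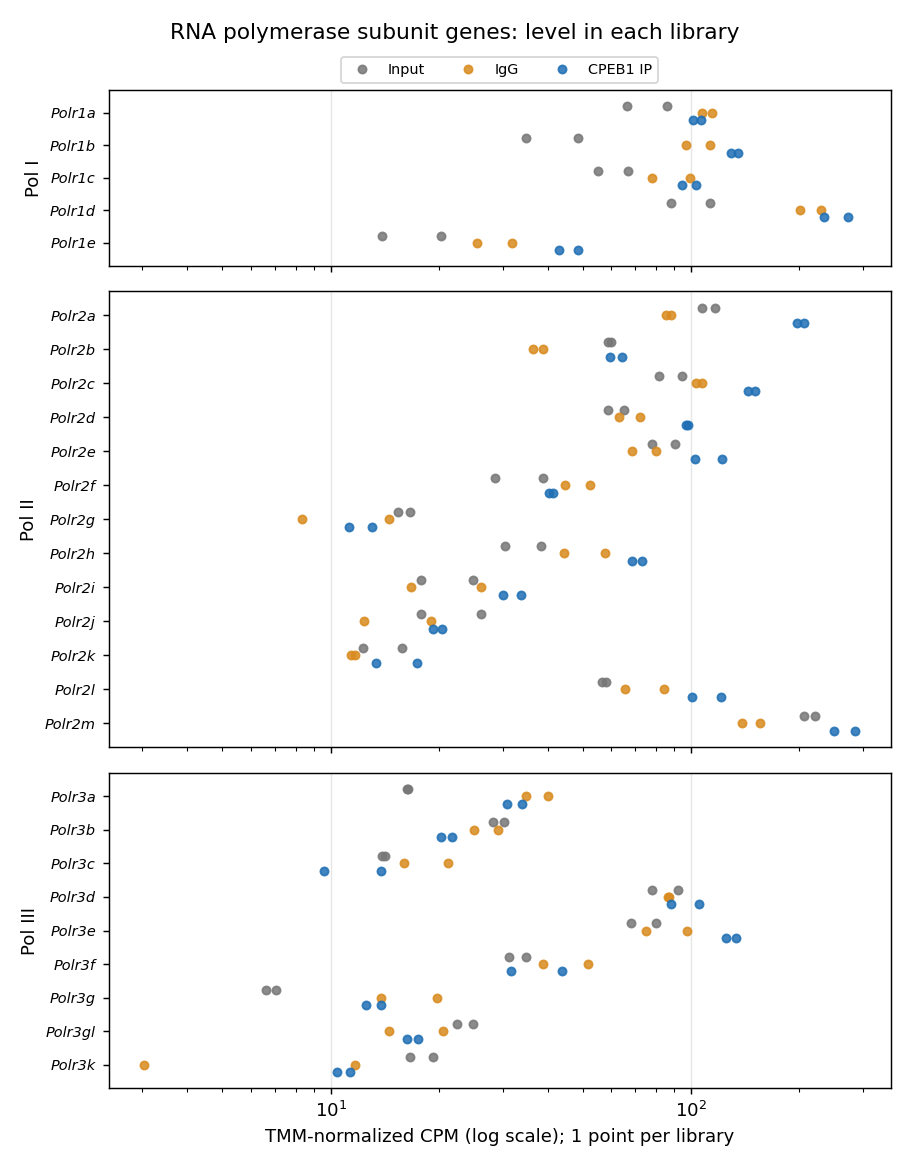
TMM-normalized CPM (log scale) of the 27 subunit genes in each library, 1 point per library, for input (gray), IgG (orange) and CPEB1 IP (blue), in 3 panels for Pol I, Pol II and Pol III. Polr2a stands at 197 and 206 CPM in CPEB1 IP against 85.2 to 116 CPM in the other 4 libraries, while the Pol I genes lie lower in input than in both precipitates.

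Pol III gave another picture, but most of its genes had low IgG counts. Outside Polr3d and Polr3e, these ran from 4 (Polr3k) to 71 (Polr3f) for a library, with SEs over IgG of 0.22 to 0.48. Differences of the size seen for Polr2c or Polr2d might not be resolved there. Polr3a, the largest Pol III subunit, had 16.3 and 16.4 CPM in input, 34.9 and 40.1 CPM in IgG, and 30.8 and 34.1 CPM in CPEB1 IP. Polr3b, the second-largest, had 28.2 and 30.2 CPM in input, 25.1 and 29.1 CPM in IgG, and 21.7 and 20.2 CPM in CPEB1 IP. For both active-centre genes CPEB1 IP lay below IgG, for Polr3a not with DESeq2 or without the filter (log2 fold changes 0.016 and 0.14). Neither difference passed the test (log2 fold changes -0.26, SE 0.22, and -0.45, SE 0.27, edgeR adjusted p = 0.383 and 0.216).

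Neither of the paralogs Polr3g and Polr3gl passed. Polr3g had 7.06 and 6.61 CPM in input, 19.7 and 13.8 CPM in IgG, and 12.5 and 13.8 CPM in CPEB1 IP, so both precipitates lay above input, and the higher CPEB1 IP library equalled the lower IgG library at this rounding. Polr3gl had 22.4 and 24.9 CPM in input, 20.5 and 14.6 CPM in IgG, and 17.5 and 16.3 CPM in CPEB1 IP, all precipitates being below input. The log2 fold changes over IgG were -0.40 (SE 0.34) for Polr3g and -0.12 (SE 0.32) for Polr3gl. How reads that map to several places were treated is not given in the sources used here.

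Of the 9 Pol III genes described, Polr3e passed. This gene, which with Polr3d forms a pair of subunits that acts in initiation and termination, had 79.8 and 68.0 CPM in input, 97.2 and 75.0 CPM in IgG, and 125 and 133 CPM in CPEB1 IP (log2 fold change over IgG 0.53, SE 0.14, edgeR adjusted p = 0.00648). Its partner Polr3d had a log2 fold change of 0.11 (SE 0.14) and did not pass.

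Of the Pol I genes, Polr1e alone passed by edgeR with the main settings. By DESeq2, which raised the log2 fold changes over IgG by a median of 0.28, Polr1b (adjusted p = 0.00609) and Polr1d passed too. Polr1e encodes a subunit of the dimer that helps Pol I initiate and elongate. It had 20.3 and 13.9 CPM in input, 31.9 and 25.5 CPM in IgG, and 42.9 and 48.5 CPM in CPEB1 IP. Its log2 fold change over IgG was 0.62 (SE 0.22, edgeR adjusted p = 0.0323). Polr1a, the largest subunit, had 85.6 and 66.4 CPM in input, 115 and 107 CPM in IgG, and 101 and 107 CPM in CPEB1 IP. Polr1b, the second-largest, had 48.5 and 35.0 CPM in input, 113 and 96.9 CPM in IgG, and 129 and 135 CPM in CPEB1 IP. The 2 precipitates were close for Polr1a (log2 fold change over IgG -0.15, SE 0.13) and somewhat apart for Polr1b (0.27, SE 0.13, edgeR adjusted p = 0.112), and both genes had their lowest values in input. Polr1c, a subunit that Pol I shares with Pol III, had 55.2 and 66.8 CPM in input, 99.5 and 77.9 CPM in IgG, and 94.6 and 103 CPM in CPEB1 IP, so that the precipitates overlapped and both lay above input.

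Leaving out 1 library or another ended 7 of the 9 calls. Without CPEB1 IP library 1, 6 of the 27 genes were higher, and Polr1e, Polr2d and Polr2e no longer passed (edgeR adjusted p = 0.0642 to 0.120). Without CPEB1 IP library 2, the deepest, 3 were higher (Polr2a, Polr2e and Polr2m), and the adjusted p of the other 6 was 0.0748 to 0.246. Without IgG library 2, 5 were higher, and Polr1e, Polr2e, Polr2l and Polr3e were lost (edgeR adjusted p = 0.0644 to 0.129). Without IgG library 1 there were 10, with Polr1b and Polr2h in place of Polr2d (edgeR adjusted p = 0.0659). No subunit gene was lower in any of these fits.

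**Figure D2:**
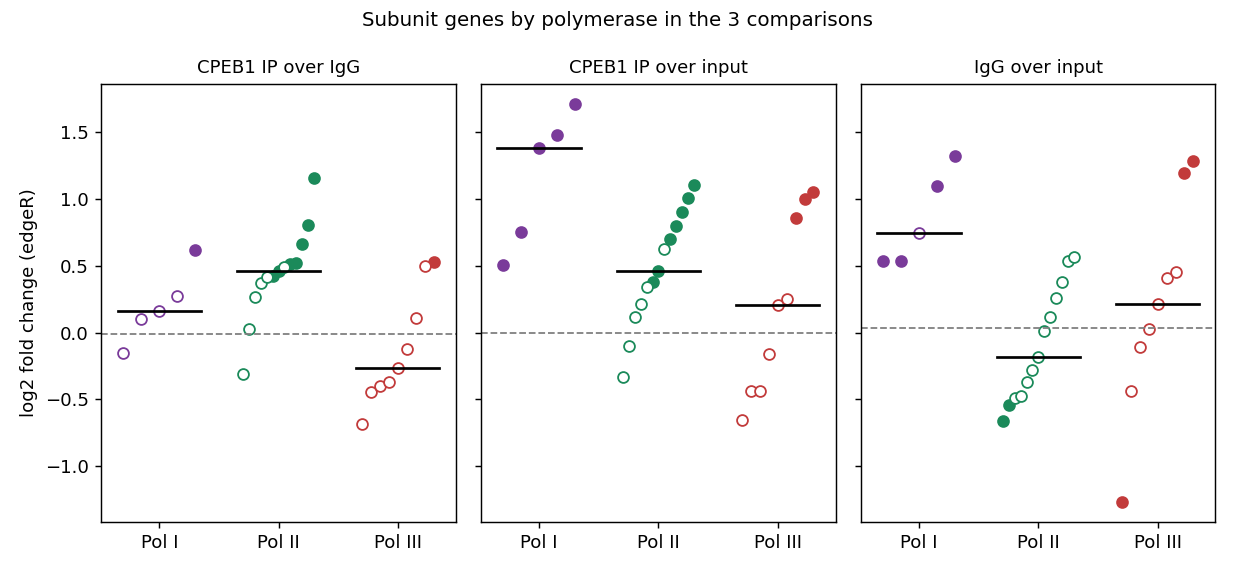
edgeR log2 fold change of each subunit gene by polymerase, in 3 panels for CPEB1 IP over IgG, CPEB1 IP over input and IgG over input. Filled points have an adjusted p under 0.05, open points do not, black bars are the medians of a polymerase and the dashed line is the median over all genes tested; Pol II has the highest median over IgG (0.46), and Pol I has the highest median over input in both precipitates (1.38 and 0.74).

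The study called a gene CPEB1-associated on 2 criteria, a fold change of FPKM over IgG above 2 in each experiment and an adjusted p under 0.05. With 1 added to each FPKM and edgeR's adjusted p, 6 subunit genes met both: Polr2a, Polr2b, Polr2c, Polr2d, Polr2e and Polr2m. Of all genes tested, 12.1% met both. The ratio was 3.18 and 3.62 for Polr2a and 2.83 and 3.09 for Polr2m in experiments 1 and 2, and no other subunit gene exceeded Polr2a in either. Polr2c was nearest to the limit on the inside, with 2.11 and 2.26. Polr3e, with 1.96 and 2.76, Polr1e, with 1.90 and 2.65, and Polr2l, with 1.89 and 3.05, were just outside.

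The ratio of FPKM has a raised baseline, because the IgG libraries had a smaller share of their total on genes: its median over the genes tested was 1.45 and 1.52. The IgG and CPEB1 IP values also come from separate tables of the deposit. With FPKM recomputed on TMM library sizes, 56 genes in all and only Polr2a among the subunit genes met both criteria. With 5 in place of 1 added to the FPKM, Polr2a, Polr2d, Polr2e and Polr2m remained, among 673 genes in all. Without CPEB1 IP library 2, the criteria were met by Polr2a, Polr2e and Polr2m only.

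**Figure D3:**
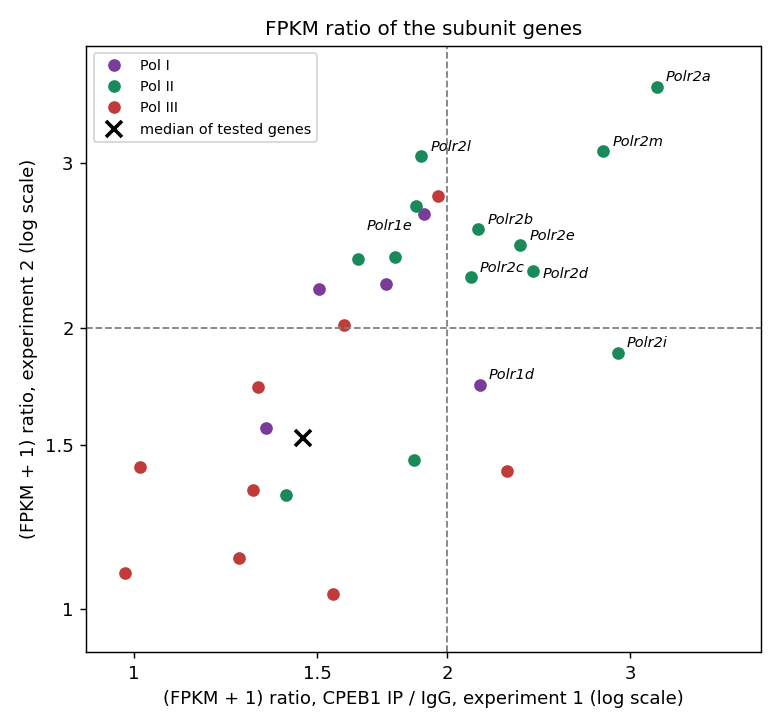
FPKM plus 1 of CPEB1 IP divided by that of IgG in experiment 1 (horizontal) and experiment 2 (vertical), both on log scales, for the 27 subunit genes colored by polymerase; dashed lines mark a ratio of 2 and the cross is the median of all genes tested (1.45 and 1.52). Polr2a and Polr2m lie farthest to the upper right, and 6 of the genes drawn lie past both lines.

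CPEs were looked for in the annotated 3′ UTR of the principal transcript of each gene (GENCODE M21, mm10), on the strand of the transcript. TTTTAT and TTTTAAT were taken as canonical. The further motifs were TTTTACT and also TTTTCAT and also TTTTAAAT and also TTTTAACT and also TTTTAAGT and also TTTTAATT and also TTTTAAAGT, and the second canonical motif lies within TTTTAATT. A canonical motif was present in 14 of the 27 subunit genes (51.9%) and in 62.7% of the 10886 genes tested with such a 3′ UTR, while the median 3′ UTR was 498 bases for the subunit genes and 1112 bases for all. By polymerase, 3 of 5 Pol I, 6 of 13 Pol II and 5 of 9 Pol III genes held one. Any of the 9 motifs was present in 18 subunit genes (66.7%) and in 70.6% of all.

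The sites below are those of 3 genes whose motif ended near the end of the transcript (Polr2b, Polr2h and Polr1c) and of 3 others that were higher in CPEB1 IP than in IgG (Polr2c, Polr1e and Polr3e), each in a window of 30 bases, 5′ to 3′ along the transcript, with the canonical motif in capitals. Polr2b is on the plus strand at chr5:77349247-77349276, Polr2h on the plus strand at chr16:20722231-20722260, Polr2c on the plus strand at chr8:94863864-94863893, Polr1e on the plus strand at chr4:45032122-45032151, Polr3e on the plus strand at chr7:120945982-120946011 and Polr1c on the minus strand at chr17:46243983-46244012.
Polr2b: ttgtgataagaaTTTTATttgttttgttta
Polr2h: gtatatgattttTTTTATtaaagttttctt
Polr2c: ctttttaaaagtTTTTATttttggcaataa
Polr1e: gttcacttccatTTTTATttttttgaaaaa
Polr3e: gactcctgccaaTTTTATtaaaccaaattg
Polr1c: ccagtcaatacaTTTTATtaaatgtgccac

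The distance from the end of the motif to the annotated end of the transcript was 60 bases for Polr2b, 19 for Polr2h, 361 for Polr2c, 1553 for Polr1e, 1433 for Polr3e and 75 for Polr1c. Polr2c and Polr3e each hold a further canonical motif, 486 and 1502 bases from the end, and the nearer one is printed. In all, 5 subunit genes (Polr1c, Polr2b, Polr2f, Polr2h and Polr2k) had a canonical motif that ended within 100 bases of the transcript end. The sites of Polr2f and Polr2k, 37 and 90 bases from it, are not printed. Their log2 fold changes over IgG were -0.31 and 0.37. The gene with the largest difference over IgG, Polr2a, has a 3′ UTR of 413 bases that holds none of the 9 motifs, and the same is true of Polr2e and Polr2l. Polr2m, with 960 bases, holds no canonical motif but 2 of the others. The absence of motifs from these annotated 3′ UTRs says nothing on other transcripts of the genes or on other motifs.

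Presence of a canonical motif went with little difference in the response of the subunit genes: in CPEB1 IP against IgG, their median log2 fold change was 0.40 for the 14 genes with one and 0.27 for the 13 without. Over all genes tested, it was -0.01 for the 6829 with one and 0.10 for the 4057 without. The number of canonical motifs and the log2 fold change over IgG had a Spearman rho of -0.01 across the 27 genes. That with the 3′ UTR length was -0.06, and that with the mean FPKM in input was 0.49, beside 0.63 over all genes tested. These are descriptions across genes, which share libraries and are not independent.

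Set against input, CPEB1 IP held more RNA of the Pol I genes in particular. In this comparison 15 of the 27 subunit genes were higher in CPEB1 IP by edgeR, beside 17.0% of the 12171 genes tested, and none was lower, beside 15.8%. At an unadjusted p under 0.05, 1 was lower (Polr3k, a subunit that acts in termination, named after its values were seen), and by DESeq2 none was. All 5 Pol I genes were higher, with log2 fold changes from 0.50 to 1.71 and a median of 1.38, against 7 of 13 for Pol II (median 0.46) and 3 of 9 for Pol III (median 0.21). The median over all genes tested was -0.00377. By DESeq2, 11 of the 27 were higher, 4 of Pol I, 5 of Pol II and 2 of Pol III. DESeq2 called 1227 of all 34778 genes with a count higher. Polr1a, Polr2e, Polr2m and Polr3g did not pass there (DESeq2 adjusted p = 0.110 to 0.212), nor in edgeR without the filter on low counts (adjusted p = 0.0528 to 0.107).

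The 3 largest differences that passed were all of Pol I: Polr1b, with a log2 fold change of 1.71 (SE 0.18, edgeR adjusted p = 2.38e-05), Polr1e with 1.48 (SE 0.23, adjusted p = 4.89e-04) and Polr1d with 1.38 (SE 0.15, adjusted p = 3.72e-05). Polr1d had 88.1 and 113 CPM in input, 201 and 229 CPM in IgG, and 273 and 234 CPM in CPEB1 IP, the precipitates lying well above input. The smallest that passed were Polr2m (0.38, SE 0.13), Polr2e (0.46, SE 0.15) and Polr1a (0.50, SE 0.16), with edgeR adjusted p = 0.0443, 0.0345 and 0.0319. Polr2a was 0.90 higher on the log2 scale (SE 0.14, adjusted p = 3.67e-04) and Polr3a 1.05 higher (SE 0.23, adjusted p = 0.00364). Polr2b (0.12, SE 0.16) and Polr3b (-0.44, SE 0.22) did not pass. Polr3g was 1.003 higher (SE 0.33, adjusted p = 0.0336), and Polr3gl had a log2 fold change of -0.44 (SE 0.24, adjusted p = 0.184).

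CPEB1 IP library 2 bore on these calls more than the others. Without it, 8 of the 27 genes were higher, and Polr1a, Polr1c, Polr2d, Polr2e, Polr2m, Polr3a and Polr3g did not pass (edgeR adjusted p = 0.0596 to 0.585). Without CPEB1 IP library 1, Polr1a, Polr2e, Polr2m and Polr3g were lost (edgeR adjusted p = 0.0874 to 0.360). Leaving out input library 1 ended the call of Polr2e (adjusted p = 0.0817), and leaving out input library 2 that of Polr1a (adjusted p = 0.0754), and in the latter fit Polr2f, Polr2i and Polr3d passed. Polr1b, Polr1d, Polr1e, Polr2a, Polr2c, Polr2h, Polr2l and Polr3e were higher in every fit run.

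**Figure D4:**
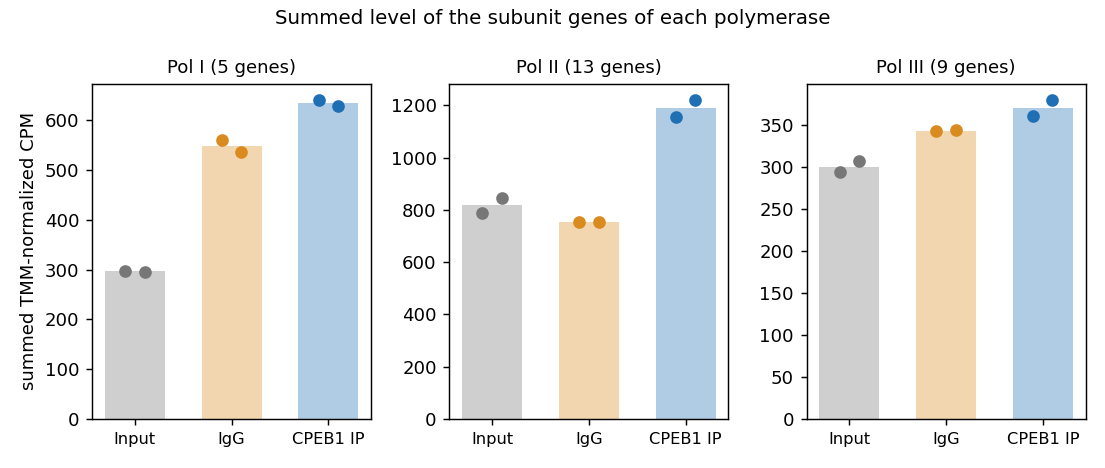
Summed TMM-normalized CPM of the subunit genes of each polymerase in input, IgG and CPEB1 IP; bars are means and points the 2 libraries, each panel with an axis of its own from 0. Pol I sums to 295 and 298 CPM in input and to 628 and 641 CPM in CPEB1 IP with IgG at 537 and 561, whereas Pol II in IgG (752 and 753) lies below input (789 and 847). Polr2m alone makes up 206 and 221 CPM of the Pol II sums in input and 138 and 155 CPM in IgG.

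The IgG libraries were set against input to see what the precipitation held without the CPEB1 antibody. In IgG, 6 of the 27 subunit genes were higher by edgeR, a share near the 21.4% of the 12980 genes tested, and 3 were lower, beside 19.4%. By DESeq2, 2 were higher and 1 lower, beside 1134 and 1594 of all 40052 genes with a count. Those higher by edgeR were 4 of the 5 Pol I genes (Polr1a to Polr1d) and 2 Pol III genes (Polr3a and Polr3g). Those lower were Polr2b, Polr2m and Polr3k. The median log2 fold change was 0.74 for Pol I, 0.22 for Pol III and -0.18 for Pol II, and 0.03 over all genes tested. No Pol II gene was higher by edgeR with these settings or by DESeq2, and 2 were at an unadjusted p under 0.05.

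The largest log2 fold changes that passed were 1.32 for Polr1b (SE 0.21, edgeR adjusted p = 4.17e-06), 1.29 for Polr3g (SE 0.44, adjusted p = 0.0173) and 1.20 for Polr3a (SE 0.31, adjusted p = 0.00187). The lowest were -1.27 for Polr3k (SE 0.46, adjusted p = 0.0269), -0.66 for Polr2b (SE 0.24, adjusted p = 0.0239) and -0.54 for Polr2m (SE 0.16, adjusted p = 0.00703). Polr3k rested on 4 and 16 counts in the IgG libraries, 3.04 and 11.7 CPM, against 16.6 and 19.2 CPM in input. Polr1a was 0.54 higher on the log2 scale (SE 0.19, adjusted p = 0.0238), and Polr2a (-0.37, SE 0.19), Polr3b (-0.11, SE 0.29) and Polr3gl (-0.43, SE 0.35) did not pass.

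Each of these calls except Polr1b, Polr1d and Polr3a was lost when 1 library or another was left out. Without IgG library 1, 3 genes were higher and none lower (edgeR adjusted p of those lost = 0.1002 to 0.431), and without IgG library 2, 4 were higher and 1 lower (0.0608 to 0.158). Without input library 1, Polr1c and Polr2b were lost (adjusted p = 0.119 and 0.0660) and Polr1e was gained. Without input library 2, Polr1a, Polr3g and Polr3k were lost (0.0612 to 0.171), while Polr2f and Polr2h passed as higher. With all 6 libraries in 1 fit, Polr1e and Polr2h were higher too. With DESeq2, those higher were Polr1b and Polr1d, and Polr2m was lower.

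The polymerases can be set side by side by the summed level of their genes in each library. The Pol I genes summed to 298 and 295 CPM in input, 561 and 537 CPM in IgG, and 641 and 628 CPM in CPEB1 IP, so most of the rise over input was present in IgG as well. The Pol II genes summed to 789 and 847 CPM in input, 753 and 752 CPM in IgG, and 1156 and 1222 CPM in CPEB1 IP, where only CPEB1 IP stood above input. Polr2m alone held 206 and 221 CPM of the input sums, and 138 and 155 CPM of the IgG sums. In IgG over input, 6 of the 13 Pol II genes had a log2 fold change above 0. The 9 Pol III genes described summed to 294 and 306 CPM in input, 342 and 344 CPM in IgG, and 360 and 380 CPM in CPEB1 IP, the narrowest span of the 3. Only 3 of these 9 had a log2 fold change over IgG above 0. Polr3e alone held 97.2 and 75.0 CPM of the IgG sums, and 125 and 133 CPM of the CPEB1 IP sums. The 3 comparisons share libraries and are not independent, and no test was run on the sums or between polymerases. Within each numbered pair of libraries, the median log2 ratio for CPEB1 IP against IgG, relative to that of all genes tested, was 0.42 and 0.54 for Pol II, 0.14 and 0.36 for Pol I, and -0.22 and -0.08 for Pol III.

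Proteins that work with the polymerases were listed by role. Their counts stand beside the shares of all genes tested given above, which were 14.7% higher and 18.7% lower over IgG, and 17.0% and 15.8% in CPEB1 IP over input. Of 42045 genes with a count, DESeq2 called 2635 higher and 998 lower over IgG. In CPEB1 IP over input it called 1227 and 1189 of 34778. Pol I subunits that do not carry a Polr1 name in the tables (Twistnb, Cd3eap and Znrd1) had 2 of 3 higher in CPEB1 IP than in IgG. Cd3eap, the partner of Polr1e in its dimer, had 41.7 and 38.4 CPM in input, 82.8 and 101 CPM in IgG, and 143 and 159 CPM in CPEB1 IP (log2 fold change over IgG 0.66, edgeR adjusted p = 7.65e-04). Of 7 Pol I factors, 2 were higher over IgG, Rrn3 and Ubtf, which recruit Pol I to the ribosomal DNA, and 1 was lower, Taf1d of the promoter selectivity factor (-0.64). Against input, 2 of the 3 subunits and 4 of the 7 factors were higher in CPEB1 IP, and 2 and 2 in IgG, in which Rrn3 was lower (-0.54).

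For Pol II, none of the 18 general transcription factor genes was higher or lower in CPEB1 IP than in IgG by edgeR, with 2 higher at an unadjusted p under 0.05 and 2 higher by DESeq2. Their median log2 fold change was 0.14. Of 22 genes for pausing and elongation, 3 were higher (Supt5, Larp7 and Paf1) and 3 lower (Ccnt2, Cdc73 and Ell2), with Larp7, which holds the elongation kinase in an inactive particle, at 0.73 and Ccnt2, a cyclin of that kinase, at -0.78. By DESeq2, which raised the log2 fold changes over IgG by a median of 0.28, 9 of the 22 were higher and 1 lower. Against input, 3 general factor genes were higher and 3 lower in CPEB1 IP, and 7 pausing and elongation genes were higher and 2 lower. By DESeq2 these were 3 and 2, and 4 and 1.

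For Pol III, the subunit Crcp and 16 factors held 1 gene higher over IgG, Maf1, the repressor of Pol III (0.34), and 3 lower: Gtf3c3 of the factor TFIIIC (-1.90), and Snapc3 and Snapc4 of the complex for small nuclear RNA promoters (-0.68 and -0.73). By DESeq2, 2 of the 17 were higher and 1 lower. Crcp itself, a stalk subunit, did not pass over IgG (0.56, edgeR adjusted p = 0.0535). In CPEB1 IP over input, 4 of the 17 were higher and 2 lower by edgeR, and 1 and none by DESeq2. Of 12 genes tested for assembly and nuclear import of the polymerases, 3 were higher over IgG: Ruvbl1 (1.14), Ruvbl2 (0.61) and Pfdn6 (0.56). These are parts of a chaperone complex that assembles Pol II, but the median log2 fold change of the list was 0.06. Rpap3, Uri1, Pih1d1 and Pfdn2 of the same list did not pass (-0.36, -0.31, 0.04 and 0.27). None of the list was lower over IgG by edgeR, at an unadjusted p under 0.05 or by DESeq2. In CPEB1 IP over input, 4 of 13 were higher and none lower by edgeR. Of the genes of mitochondrial transcription, a separate system, 3 were tested over IgG. None passed there by either tool or at an unadjusted p under 0.05. Against input, Tfb2m was higher by edgeR in CPEB1 IP (1.26) and in IgG (1.06), and Tfb1m in IgG (1.55). Genes of these lists given as higher or lower were named because they passed the test.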

How the data were processed

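RIP-seq libraries were taken by their labels as CPEB1 IP, IgG and input, 2 of each. The authors mapped reads to mm10 with HISAT and made the deposited raw counts of reads per gene with featureCounts. FPKM were deposited too, made by the authors from these counts, the exon length of the gene and a library total. Annotation release, strand setting and multi-mapping reads are not given in the sources used here. SMART-Seq2 amplified the RNA.

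Counts were tested in R 4.3.3 with edgeR 4.0.16, 2 groups at a time (filterByExpr, TMM, quasi-likelihood test, Benjamini-Hochberg adjustment at 0.05). The standard error is the log2 fold change divided by the square root of F. Alternatives were DESeq2 1.42.0 without the edgeR filter, DESeq2 size factors in edgeR, no filter, a replicate block, all 6 libraries in 1 fit, and leaving out each library. FPKM ratios used a pseudocount of 1. The procedure was tested on simulated data only with changes larger than any of the subunit genes, so changes of their size were not tested there. Python 3.11.15 with pandas 2.3.3, numpy 2.4.6, scipy 1.17.1 and matplotlib 3.10.9 made the rest.

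Values per library were given for active-centre subunits, Polr3g, Polr3gl and genes past the threshold over IgG, and the 3 largest and 3 smallest calls over input. A further gene whose symbol meets the naming rule stayed in every fit and is not reported here. The members and lists were chosen with earlier results of these data known. CPE motifs came from the study's supplement. No protein sequence was used here.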

Additional observations from a re-analysis of the deposited data

How the results depend on the processing

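Each group had 2 libraries, so errors lean on dispersion estimates borrowed between genes, and the low counts of IgG limit Polr2g, Polr2k and Polr3k most. The centre of the comparison with IgG differed between fits. Over the same genes the log2 fold change rose by a median of 0.28 with DESeq2, which was run without the filter. In edgeR without the filter it rose by 0.40. Of all calls, 72.5% and 60.1% were then higher, against 44.0%. With DESeq2 size factors in edgeR and the filter kept, the rise was 0.012, with 45.4% of calls higher. For IgG over input, the log2 fold change fell by 0.14 with DESeq2 and 0.27 in edgeR without the filter. Calls that were higher then made up 41.6% and 57.3%, against 52.4%. Relative to these shifts, the medians of the polymerases moved by less than the difference between the 2 numbered pairs under every alternative that kept all libraries.

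Without the filter, 15 subunit genes were higher in CPEB1 IP than in IgG in place of 9, and with DESeq2 12 were. In IgG, 3 were higher than in input without the filter, in place of 6. With DESeq2, 2 were higher in IgG than in input, and 1 was lower in place of 3. Of the criteria for CPEB1-associated genes, 5 added to the FPKM left 4 of 6 and TMM library sizes left 1. With 0.1 added there were 8 and with crossed pairs 9, both with Polr1e and Polr3e. Over all genes, 1464 met both criteria with the main settings, 673 with 5 added and 56 with TMM library sizes. With 0.1 added 1667 did, and with crossed pairs 1508. Some log2 fold changes over IgG that did not pass changed sign: Polr1a to 0.13 with DESeq2 and 0.25 without the filter, Polr3a to 0.016 and 0.14, Polr3gl to 0.16 and 0.28, and Polr3g to 0.0054 without the filter. Less the shift, these were again below 0. Polr3gl ranged from -0.31 to 0.19 when 1 library was left out.

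Leaving out 1 library gave 3 to 10 genes higher over IgG, 8 to 17 higher in CPEB1 IP than in input, and 3 to 6 higher and 0 to 2 lower in IgG than in input. It gave 3 to 10 CPEB1-associated genes. The median less that of all genes tested was 0.161 to 0.286 for Pol I, 0.386 to 0.6001 for Pol II and -0.201 to -0.113 for Pol III in CPEB1 IP against IgG, 1.21 to 1.38 for Pol I and 0.0448 to 0.268 for Pol III against input, and, in IgG against input, 0.607 to 0.949 for Pol I, -0.268 to -0.102 for Pol II and 0.0608 to 0.358 for Pol III.

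The replicate block kept all 9 calls over IgG and 13 of the 15 over input (Polr2e and Polr2m, edgeR adjusted p = 0.0541 and 0.0942), and all 9 of IgG over input. The study treats CPEB1 IP and IgG libraries as pairs, but deviations of libraries with the same number had a correlation of only -0.00946 over 12124 genes for these groups, -0.0292 between CPEB1 IP and input, and 0.0294 between IgG and input.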
